A study of Homo sapiens with 12 samples.

Results

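INTS13 was compared with INTS11 in HEK293T cells, a human embryonic kidney cell line, by chromatin immunoprecipitation and sequencing (ChIP-seq). The material was 2 lists of INTS13 peaks and 2 lists of INTS11 peaks, 1 list per library, out of 10 lists for 5 proteins. All cells were wild type and untreated as far as the labels say, and the antibodies came from Proteintech for INTS13 and from Atlas Antibodies for INTS11. The series asked whether INTS13 and its partners share genomic sites. Replicate numbers come from the sample titles, and nothing in the labels says that replicates were separate cultures, so the spread between them may be technical.

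A reproducible region of a protein is a stretch of merged, overlapping peaks that holds a peak of each of its 2 lists. By overlap of 1 bp or more, these regions fell into 3 classes. There were 8102 INTS11 regions without INTS13, 42905 INTS13 regions with INTS11 and 160694 INTS13 regions without INTS11, together 211701 of the 325633 regions of the 5 proteins. The classes are called INTS11-only, shared and INTS13-only here.

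Integrator is a large complex that travels with RNA polymerase II and cuts nascent RNA. It makes the 3' ends of small nuclear RNAs (snRNAs) and ends transcription early at many protein-coding genes, among them the immediate early genes that respond to growth signals. INTS11 is the endonuclease that makes the cut and works in a cleavage module with INTS9. INTS13 belongs with INTS10 and INTS14 to a separate arm of the complex that has been linked to contacts with transcription factors.

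The lists differed in length, and single INTS11 lists differed most. INTS13 replicates 1 and 2 held 416964 and 341913 peaks, against 195303 and 106144 peaks in INTS11 replicates 1 and 2. They covered 350.7 and 343.1 Mb for INTS13 and 168.5 and 95.1 Mb for INTS11. How deeply each library was sequenced is unknown. Peaks were crowded in part of the genome: 382 of 3043 bins of 1 Mb had a peak count above 2 times that of the mean bin, by the median of 10 lists, and are called dense bins.

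The sequences of 6 promoters show examples of the gene classes compared. By reproducible regions, JUN and TLE4 had both proteins at their starts, EGR1 and PGAP2 had INTS13 alone, CDC27 had INTS11 alone and ALB had neither. In single lists, INTS13 replicate 1 also had a peak at CDC27 and INTS11 replicate 1 one at EGR1. Each runs 5' to 3' from 250 bases before to 50 bases after the gene start, as listed by RefSeq on GRCh38.p14, and capitals mark CG dinucleotides. Where a gene has several listed starts, the first was used throughout, which for PGAP2 lies downstream of the outer edge of the gene at 3797720. JUN is chr1:58783998-58784297 on the minus strand, TLE4 is chr9:79571715-79572014 on the plus strand, EGR1 is chr5:138465229-138465528 on the plus strand, PGAP2 is chr11:3797648-3797947 on the plus strand, CDC27 is chr17:47189246-47189545 on the minus strand and ALB is chr4:73404037-73404336 on the plus strand.
JUN: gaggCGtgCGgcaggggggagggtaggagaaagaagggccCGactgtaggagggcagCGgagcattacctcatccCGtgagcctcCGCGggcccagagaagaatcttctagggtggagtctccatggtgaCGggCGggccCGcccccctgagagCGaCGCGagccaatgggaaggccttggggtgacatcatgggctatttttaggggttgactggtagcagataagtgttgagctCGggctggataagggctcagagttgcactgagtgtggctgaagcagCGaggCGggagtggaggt
TLE4: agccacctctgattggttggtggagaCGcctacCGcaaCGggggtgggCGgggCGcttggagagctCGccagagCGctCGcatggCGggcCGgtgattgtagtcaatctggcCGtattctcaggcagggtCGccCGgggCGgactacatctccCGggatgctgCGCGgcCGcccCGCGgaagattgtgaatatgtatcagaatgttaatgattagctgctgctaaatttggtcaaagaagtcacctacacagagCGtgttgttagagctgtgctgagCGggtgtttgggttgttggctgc
EGR1: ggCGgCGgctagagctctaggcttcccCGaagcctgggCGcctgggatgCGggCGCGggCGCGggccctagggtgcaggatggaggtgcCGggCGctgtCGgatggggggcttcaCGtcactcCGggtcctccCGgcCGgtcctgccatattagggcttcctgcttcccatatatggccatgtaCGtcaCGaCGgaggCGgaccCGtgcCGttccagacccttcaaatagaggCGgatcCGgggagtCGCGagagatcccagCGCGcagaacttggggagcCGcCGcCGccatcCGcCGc
PGAP2: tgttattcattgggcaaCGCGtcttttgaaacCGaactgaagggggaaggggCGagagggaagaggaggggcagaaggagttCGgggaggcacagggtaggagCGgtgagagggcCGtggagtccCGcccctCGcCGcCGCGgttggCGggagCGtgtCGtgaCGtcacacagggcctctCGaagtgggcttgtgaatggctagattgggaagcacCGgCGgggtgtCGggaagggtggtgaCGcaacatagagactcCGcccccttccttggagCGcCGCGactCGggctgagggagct
CDC27: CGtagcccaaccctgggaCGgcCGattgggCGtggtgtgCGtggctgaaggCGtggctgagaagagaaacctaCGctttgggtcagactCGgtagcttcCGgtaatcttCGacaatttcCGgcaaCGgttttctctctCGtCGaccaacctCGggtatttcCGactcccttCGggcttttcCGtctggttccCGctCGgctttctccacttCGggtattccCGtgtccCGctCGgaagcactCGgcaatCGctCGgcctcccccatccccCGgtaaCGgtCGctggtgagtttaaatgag
ALB: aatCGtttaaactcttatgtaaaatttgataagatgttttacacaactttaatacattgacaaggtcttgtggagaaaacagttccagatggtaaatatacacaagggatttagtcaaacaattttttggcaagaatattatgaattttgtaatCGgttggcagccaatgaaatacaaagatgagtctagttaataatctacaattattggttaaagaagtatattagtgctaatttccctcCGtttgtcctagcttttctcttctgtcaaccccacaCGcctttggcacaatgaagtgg
CG dinucleotides numbered 16 in JUN, 22 in TLE4, 33 in EGR1, 26 in PGAP2, 30 in CDC27 and 4 in ALB. The 5 promoters with a region of either protein thus had more than that of ALB, the serum albumin gene of liver. Among these examples the 2 with INTS13 alone had more than the 2 with both. Over all genes with a known start the medians were 26 with both and 25 with INTS13 alone, so the examples do not stand for their classes.

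Most INTS11 regions lay on INTS13, while most INTS13 regions lay away from INTS11. The second statement leans on list length: INTS11 was at 21.1% of INTS13 regions, but at 48.4% without INTS11 replicate 2 and at 49.7% with lists of equal length. The shared base pairs came to 84.5 Mb, which was 24.3% of the INTS13 territory and 78.8% of the INTS11 territory. Of the shared regions 84.0% held a single INTS11 region, and the most in 1 shared region was 21. Between single lists, INTS11 was at 33.2% and 17.9% of the peaks of INTS13 replicate 1 (with INTS11 replicates 1 and 2) and at 35.3% and 19.2% of those of INTS13 replicate 2. The share thus moved mostly with the INTS11 list. INTS13 was absent from 27.2%, 27.2%, 29.5% and 26.3% of INTS11 peaks over the same 4 pairs of lists.

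Strong INTS13 regions carried INTS11 far more often than weak ones. In the strongest decile of INTS13 regions, ranked by the authors' -log10 p within each list, 78.9% overlapped INTS11, and in the weakest decile 4.78% did. The gradient was present in dense bins, with 84.9% in the strongest decile and 19.3% in the weakest, and outside them, with 36.2% and 1.34%. Strong regions were also wide, with a median of 3190 bp in the strongest decile and 757 bp in the weakest. For INTS11 the gradient was shallower: 98.4% of the strongest decile and 72.1% of the weakest overlapped INTS13.

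**Figure D1:**
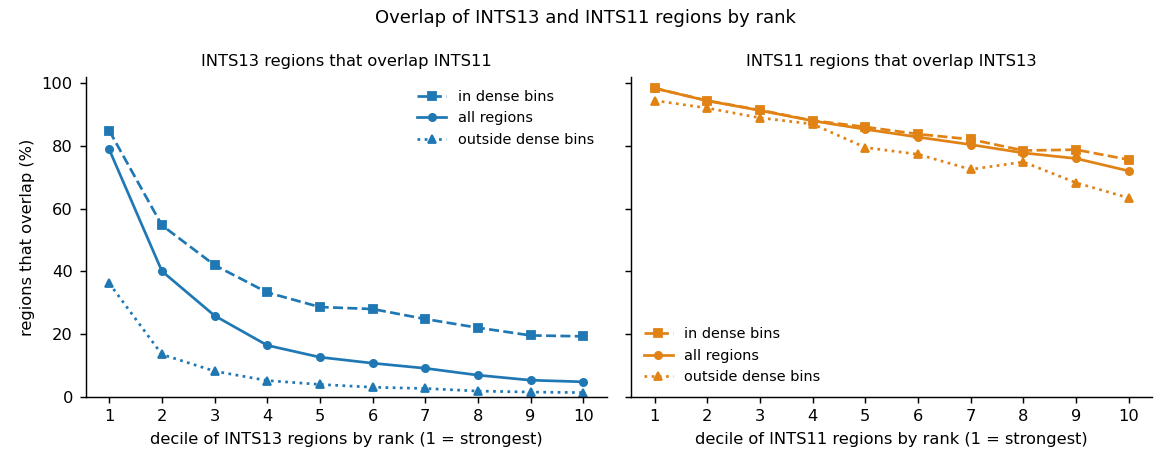
Percentage of INTS13 regions that overlap INTS11 (left) and of INTS11 regions that overlap INTS13 (right), y axis, in each decile of the regions by rank, x axis, for all regions and for those in or outside dense bins. INTS13 overlap falls steeply with rank, to 4.78%, while INTS11 overlap stays at 72.1% or more over all regions.

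Peak ranks gave the same order of the classes in all 4 lists. A rank is given as the top percentage of a list, so that a small value is a strong peak. In INTS13 replicates 1 and 2 the strongest peak of a shared region had a median rank of 10.9% and 10.9%, against 40.2% and 45.7% in INTS13-only regions. In INTS11 replicates 1 and 2 the median rank was 51.8% and 47.7% in INTS11-only regions, against 16.8% and 30.0% in shared regions. For INTS13 alone, the order was also read in a list that had no part in making the classes. When peaks of 1 INTS13 list were divided by 1 INTS11 list, the other INTS13 list held a peak at 83.7% to 88.6% of those with INTS11 and at 47.6% to 61.6% of those without. Its median rank there was 10.9% to 21.2% with INTS11 and 40.2% to 48.8% without. Peaks with INTS11 were also wider, with medians of 862 to 1201 bp against 470 to 596 bp. The part of width in these shares was not tested.

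Class membership rested partly on single lists. INTS11 replicate 1 had a peak at 35.0% of INTS13-only regions and INTS11 replicate 2 at 8.76%. No peak of either INTS11 list touched 95196 INTS13-only regions (59.2%). INTS13 replicates 1 and 2 had a peak at 33.6% and 34.5% of INTS11-only regions, and 2938 of those regions (36.3%) had none. INTS11-only regions lay near INTS13: the median gap to the nearest INTS13 region was 1191 bp, and 349 of them (4.31%) were more than 10 kb away. INTS13-only regions were a median of 38003 bp from INTS11.

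The classes lay in different parts of the genome. Dense bins held 75.9% of INTS11-only regions, 87.4% of shared regions and 27.9% of INTS13-only regions. With dense bins defined from the 6 lists of the other proteins the shares were 70.7%, 81.7% and 16.2%. Over the 4 pairs of single lists, which share lists with each other, the dense-bin share was lower in INTS11-only than in shared peaks, by a difference of -24.95 ± 2.99 percentage points, and higher in shared than in INTS13-only peaks, by 50.9 ± 7.42 points (SD, n = 4). Each of these differences had 1 sign in all 4 pairs. Among regions of 1000 to 2000 bp the INTS11-only and shared classes differed by 0.354 points, and with peaks limited to a -log10 q of at least 5 by 0.0609 points, so the lower share of the INTS11-only class was not seen there.

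By whole lists, INTS13 peaks lay in dense bins less than INTS11 peaks. The shares were 32.5% and 34.1% in INTS13 replicates 1 and 2, against 56.1% and 74.97% in INTS11 replicates 1 and 2, and did not overlap. The difference of -32.2 points had an exact two-sided permutation p of 0.333, the smallest that 2 lists against 2 can give. With lists of equal length it was -13.9 points, with the same p.

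Chromosomes differed widely in how much of INTS13 was shared. INTS11 was at 84.1% of INTS13 regions of chromosome 13 and 61.4% of those of chromosome 18, and at 39.4%, 35.8% and 32.7% of those of chromosomes 1, 22 and X. On chromosomes 4 and 20, which hold no dense bin, it was at 2.00% and 2.31%. Chromosomes 1, 13 and X together held most shared regions, with 13049, 7750 and 3758. Outside dense bins the share was 4.39% on chromosome 13 and 15.7% on chromosome 18, the highest of all chromosomes there.

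Gene ends were rarest in the INTS11-only class. The 1-kb surroundings of the ends of genes, protein-coding or long non-coding RNA, held 4.89% of INTS11-only regions, 15.7% of shared regions and 13.9% of INTS13-only regions. Over the 4 pairs of lists the share was lower in INTS11-only than in shared peaks, by a difference of -7.83 ± 0.877 points (SD, n = 4; -8.60 to -6.57), and it was lower under each of 14 alternative settings. Outside dense bins the shares were 7.13%, 23.6% and 14.3%. Width bears on the gap between INTS11-only and shared regions: among regions of 500 to 1000 bp the shares were 4.93% of INTS11-only, 5.01% of shared and 8.93% of INTS13-only regions, and among those of 1000 to 2000 bp 5.07%, 8.88% and 14.1%. By the midpoint of the region the difference was -3.84 points. INTS11-only regions were also the farthest from gene ends, with a median distance of 26.7 kb, beside 16.4 kb for shared and 11.9 kb for INTS13-only regions. Outside dense bins the medians were 21.9, 10.7 and 11.8 kb, so there the shared class was the nearest. Of INTS11-only regions 39.0% lay between genes and 56.1% within a gene body away from its ends.

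**Figure D2:**
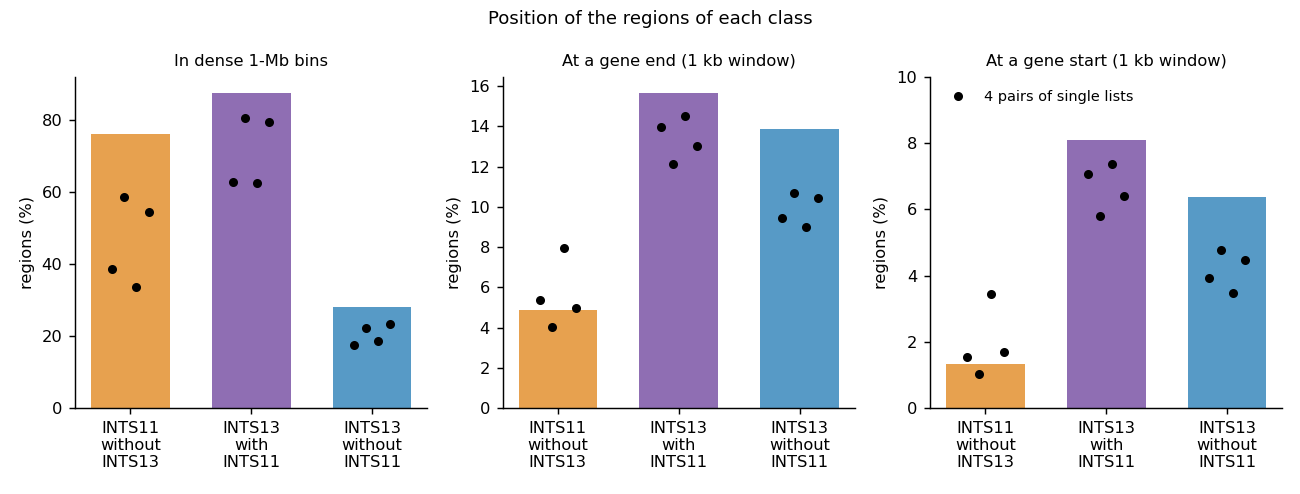
Percentage of regions (y axes) in dense bins, at a gene end and at a gene start for INTS11-only, shared and INTS13-only regions, with bars for reproducible regions and points for the 4 pairs of 1 INTS13 and 1 INTS11 list. INTS11-only regions have the lowest shares at gene ends (4.89%) and gene starts (1.33%), and shared regions the highest share in dense bins (87.4%).

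The gene-end shares of shared and INTS13-only regions could not be ordered without reference to width. Shared regions had a median width of 1839 bp and INTS13-only regions one of 1072 bp, and a wider region reaches a window more easily. The difference was 1.81 points over all regions and 3.52 ± 1.84 points over the 4 pairs of lists (SD, n = 4; 1.45 to 5.49). It turned round by the midpoint of the region, to -1.55 points, and among regions of 1000 to 2000 bp, to -5.26 points. It also turned round with lists of equal length, to -4.07 points, and with a -log10 q of at least 5, to -8.84 points. Outside dense bins shared regions were higher, by 9.26 points with any overlap and by 4.33 points by the midpoint. There, among regions of 1 to 2 kb, 15.9% of shared and 15.2% of INTS13-only regions lay at a gene end, and among those of 2 to 4 kb 32.6% and 27.2%. In narrower regions the order was the opposite, with 7.85% and 9.36% at 500 to 1000 bp and 5.62% and 6.26% under 500 bp.

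**Figure D3:**
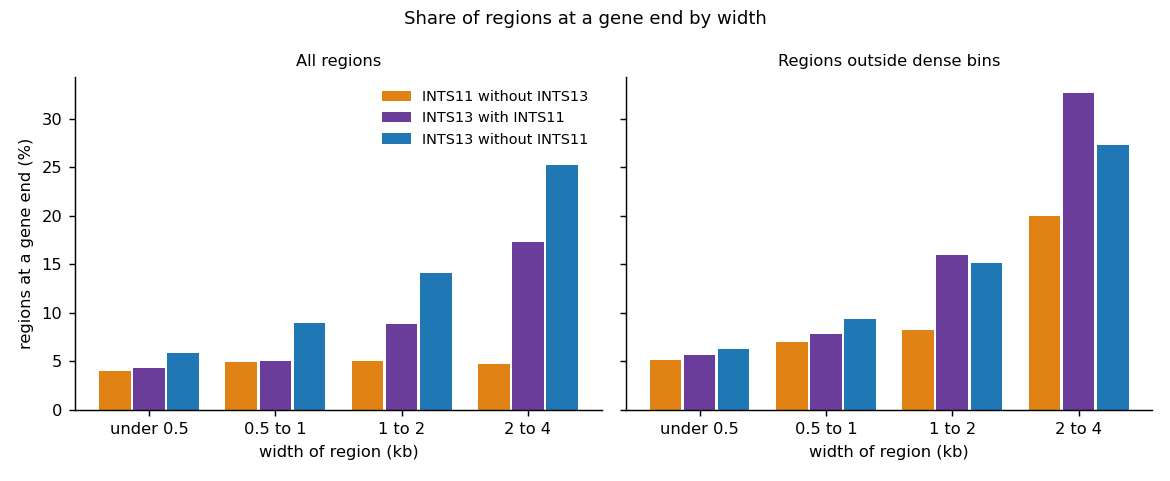
Percentage of regions at a gene end (y axis) by width of the region in kb (x axis), for INTS11-only, shared and INTS13-only regions, over all regions (left) and outside dense bins (right). The share rises with width in shared and INTS13-only regions, and outside dense bins these classes are close at 1 to 2 kb (15.9% and 15.2%). At 2 to 4 kb outside dense bins the INTS11-only class holds 15 regions.

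As deposited, the whole lists of the 2 proteins overlapped in their share at gene ends. The share was 10.95% and 10.95% of peaks in INTS13 replicates 1 and 2, against 11.5% and 9.23% in INTS11 replicates 1 and 2. The INTS11 values lay on either side of the INTS13 values. The difference of 0.601 points had an exact two-sided permutation p of 1.0, and without INTS11 replicate 2 it was -0.524 points. It was larger with lists of equal length, at 5.18 points, and among peaks of -log10 q at least 5, at 4.57 points, with INTS13 higher and an exact permutation p of 0.333 in both, the smallest that can be reached.

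INTS13 classes favoured the start of genes over the other end outside dense bins, and the INTS11-only class did not. The start and strand were known for 15812 protein-coding genes and for 11383 genes of long non-coding RNA. Outside dense bins a gene start held 2.72% of INTS11-only, 14.2% of shared and 6.85% of INTS13-only regions. The other end held 3.03%, 8.45% and 5.33%. The ratio of start to other end was thus 0.898 in INTS11-only, 1.68 in shared and 1.29 in INTS13-only regions there, and 0.581, 1.16 and 1.17 over all regions. These ratios were not tested.

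Summits of INTS13 replicate 1 gathered at gene starts in both of its classes. The bin from 250 bp upstream to the start held the strongest replicate 1 summit of 1.21% of shared regions and 0.927% of INTS13-only regions. In INTS13 replicate 2 the same bin held 0.368% and 0.450%, and the fullest bin was 250 to 500 bp downstream of the start, with 0.702% and 0.752%. The replicates thus differed in where the summit sat. Among INTS11-only regions the bin just upstream of the start held 8 summits of INTS11 replicate 1 and 12 of replicate 2.

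**Figure D4:**
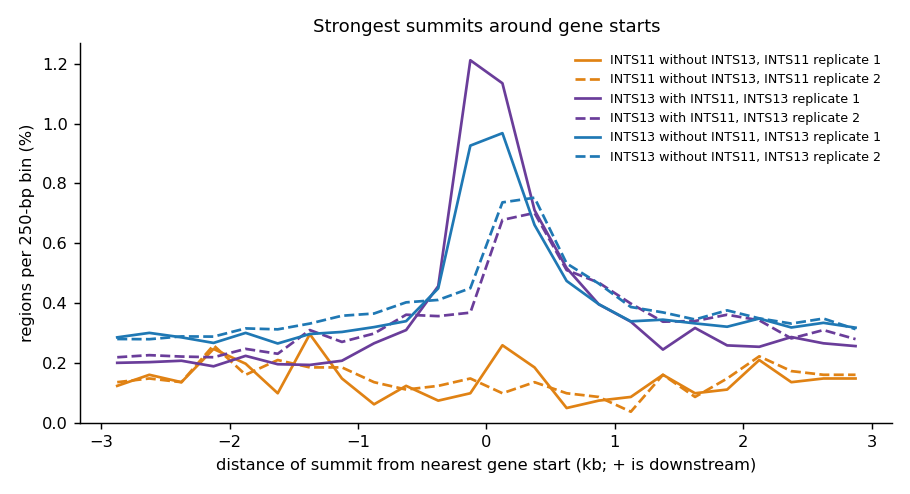
Percentage of regions per 250-bp bin (y axis) whose strongest summit lies at each distance from the nearest gene start (x axis, kb, positive is downstream), for each class and replicate list. INTS13 replicate 1 reaches 1.21% in shared regions just upstream of the start, replicate 2 reaches 0.702% further downstream, and INTS11-only lines stay at 0.259% or less in the 500 bp around the start.

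Within shared regions, the distance between INTS13 and INTS11 summits lay between those of the 2 pairs of replicates. In the 40859 regions where each of the 4 lists had a peak, the median distance was 492 to 580 bp over the 4 INTS13 and INTS11 pairs. It was 334 bp between the INTS13 replicates and 593 bp between the INTS11 replicates. Outside dense bins the 4 cross pairs were at 424 to 436 bp and the replicate pairs at 351 and 374 bp, so there the cross pairs were farther apart than either.

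Nearly every protein-coding gene with INTS11 at an end also had INTS13, which was at an end of 63.7% of all protein-coding genes. Of 19974 protein-coding genes, 3455 (17.3%) had regions of both proteins at an end, 9274 (46.4%) had INTS13 alone, 30 (0.15%) had INTS11 alone and 7215 (36.1%) had neither. A shared region as such was at 4031 genes (20.2%). In dense bins both proteins were at 56.5% of 4529 genes, and outside them at 5.8% of 15445 genes. Long non-coding RNA genes had both at 11.1% and INTS13 alone at 31.9% of 18177. Among all 59098 annotated genes both were at 12% and INTS13 alone at 33.6%. The annotated classes of small RNA genes had both at 6.49% of 154 snRNA genes, 10.5% of 1196 snoRNA genes, 10.5% of 1911 miRNA genes and 11.3% of 443 tRNA genes, and INTS13 alone at 23.4%, 21.4%, 33.1% and 33% of them. The counts hang on INTS11 replicate 2: without it a shared region was at 9355 genes and INTS13 alone at 3519.

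At 15812 protein-coding genes with a known start, both proteins were found at the start more than at the other end. INTS13 was at 60.3% of starts and 43.4% of other ends, and INTS11 at 15.2% and 10.4%. INTS13 was present at 98.7% of INTS11-bearing starts and 95.8% of INTS11-bearing other ends. In dense bins these shares were 99.6% and 96.5%, but INTS13 was at 92.8% of all starts and 83.1% of all other ends there. Outside dense bins INTS13 was at 96.1% of INTS11-bearing starts, against 50.6% of all starts. At other ends there the shares were 92.5% and 31.4%. Opposite ends, with INTS13 at one and INTS11 at the other, were seen at 38 genes. HEXIM1, which encodes an inhibitor of the elongation kinase P-TEFb, was one of them: INTS13 lay at its start and INTS11 at its 3' end.

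The strongest shared regions at protein-coding genes were broad. They were taken by the worst rank over the 4 lists among 3282 candidates. TLE4, a Groucho-family co-repressor, came first: a region of 60306 bp at chr9:79548342-79608647 spans its start and reaches both upstream of the gene and into it. Its peaks were in the top 0.00180% and 0.0158% of INTS13 replicates 1 and 2 and the top 0.00794% and 0.0132% of INTS11 replicates 1 and 2. The authors' fold over background there was 9.69 and 6.27 for INTS13 and 6.82 and 5.63 for INTS11. All 4 lists thus placed TLE4 among their strongest peaks, outside dense bins.

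The other leading shared genes had worst ranks between 0.0160% and 0.260%. They were NBPF1, a neuroblastoma breakpoint family gene, GPRIN2, PCDH9, a protocadherin, KDELR3, a receptor that returns proteins to the endoplasmic reticulum, PCSK6, a proprotein convertase, KCNJ4, a potassium channel, and TMEM184B. NBPF1 and GPRIN2 have near-identical copies elsewhere in the genome, so their peaks are uncertain. KDELR3, KCNJ4 and TMEM184B are neighbours on chromosome 22 and their 3 regions lie between 38245659 and 38478463. Of these 7 genes GPRIN2 lay outside dense bins.

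INTS13 peaks with no peak of either INTS11 list reached lower ranks. Among 5702 candidates PGAP2, which remodels GPI anchors, came first, at chr11:3796499-3799401, with ranks of 1.61% and 2.36% in INTS13 replicates 1 and 2 and folds of 3.72 and 3.13. The next were ZSWIM4, CACNA1G, a calcium channel, SFT2D3, GALT, an enzyme of galactose metabolism, HPS4, of lysosome-related organelles, and ARFGEF2 and ASAP2, which act on ARF GTPases. Their worst ranks lay between 2.99% and 5.68%. Where the start is known, in 6 of these 8 genes, the region was at the start.

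INTS11 peaks with no peak of either INTS13 list were weak and few. There were 42 candidates at protein-coding gene ends, and the leading 8 had worst ranks between 33.8% and 42.1%. They were SLITRK1, a neuronal membrane protein, TMEM167B, TRPC5OS, RTL9, ACTR8, a subunit of the INO80 remodeller, GMFB, HEXIM1 and MBL2, a lectin of innate immunity. None of them is among the 30 genes with INTS11 alone, so each also had an INTS13 region at an end. SLITRK1 had ranks of 33.8% and 30.0% in INTS11 replicates 1 and 2, with folds of 2.27 and 2.38. Where the start is known, 5 of 7 had the region at the other end and 2, RTL9 and ACTR8, at the start.

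The 30 genes with INTS11 alone by reproducible regions were mostly not free of INTS13 peaks. INTS13 replicate 1 had a peak at 28 of them, INTS13 replicate 2 at 6, and 2 genes, MYCT1 and IFNA7, had none in either list. CDC27, a subunit of the anaphase-promoting complex, shows the pattern. INTS13 replicate 1 had a peak in its top 1.61% at the CDC27 start, 20 bp from it by the summit, and replicate 2 had none. INTS11 replicates 1 and 2 had peaks there at ranks of 51.8% and 69.8%. CDC27 has close copies elsewhere in the genome, so its reads are uncertain. Others of the 30 were NAA15, an N-terminal acetyltransferase subunit, PPP1CB, a protein phosphatase, METAP2, a methionine aminopeptidase, and SMNDC1, a splicing factor. Without INTS13 replicate 2 the class fell to 5 genes, and without INTS11 replicate 2 it held 776.

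Immediate early genes are known targets of Integrator. Of 36 genes on that list 9 (25%, against 17.3% of all protein-coding genes) had both proteins. INTS13 alone was at 22 (61.1%, against 46.4%) and neither at 5 (13.9%, against 36.1%). Those with both were ATF3, BTG2, CCN1, DUSP1, DUSP5, FOSB, FOSL1, IER5L and JUN, and those with neither EGR3, IER3, KLF4, KLF6 and NR4A2, of which KLF4 and NR4A2 had a peak of INTS13 replicate 1. Outside dense bins 1 of the 20 genes with INTS13 also had INTS11 (5.00%, against 10.7% of all protein-coding genes with INTS13 there), so the higher share did not appear there. Single lists differed: INTS11 replicate 1 was at 25 members (69.4%, against 50% of genes) and replicate 2 at 9 (25%, against 22.2%).

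Single immediate early genes show how the lists differ. At the start of JUN, a subunit of the AP-1 transcription factor at chr1:58780791-58784047, INTS13 replicates 1 and 2 had peaks in their top 0.898% and 1.97%, and INTS11 replicates 1 and 2 in their top 0.177% and 47.7%. At the start of BTG2, an antiproliferative gene, the ranks were 1.61% and 2.36% for INTS13 and 1.87% and 38.1% for INTS11. At the start of FOSB, another AP-1 subunit, they were 1.61% and 8.87% for INTS13 and 21.2% and 1.74% for INTS11. Both proteins were strong in at least 1 list each at these genes, and which INTS11 list was strong varied. At the start of EGR1, a zinc finger factor, INTS13 had ranks of 0.750% and 13.5%, while INTS11 had 42.1% in replicate 1 and no peak in replicate 2. FOS, also of AP-1, was alike, with 10.9% and 73.0% for INTS13 and 62.4% for INTS11 replicate 1 alone.

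Spliceosomal and U7 snRNA genes, the classical Integrator targets, had both proteins at 3 of 19 (15.8%, against 12% of all genes). INTS13 alone was at 9 (47.4%, against 33.6%) and neither at 7 (36.8%, against 54.1%). INTS11 replicate 1 was at 11 and replicate 2 at 3 (57.9% and 15.8%, against 50% and 22.2% of protein-coding genes). Protein-coding genes are an unlike reference, since snRNA genes are short and the windows of their 2 ends nearly coincide. Of the 19 genes 9 lay in dense bins, and outside them 1 of 10 had both proteins. Those with both were RNU11, RNU4-2 and RNU5B-1, which encode the U11, U4 and U5 snRNAs. RNU11 had the strongest peaks, with ranks of 0.451% and 0.474% in INTS13 replicates 1 and 2 and 0.375% and 1.40% in INTS11 replicates 1 and 2. At RNU4-2 the ranks were 2.99% and 13.5% for INTS13 and 21.2% and 47.7% for INTS11. RNU7-1, the U7 snRNA of histone mRNA processing, had INTS13 at 8.77% and 4.07% and INTS11 replicate 1 at 13.3%, with no peak of INTS11 replicate 2. The 7 with neither were RNU1-1, RNU1-2, RNU1-3, RNU1-4, RNU2-1, RNVU1-7 and RNVU1-18, of the U1 and U2 families, whose near-identical copies make a missing peak uncertain. Of 11 small RNA genes of RNA polymerase III, 2 had both (18.2%, against 12% of all genes) and 6 INTS13 alone (54.5%, against 33.6%).

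Genes of Integrator itself and of 3' end processing had both proteins at 2 members each by reproducible regions, and the 2 INTS11 lists differed. INTS11 replicate 1 was at 56.3% of Integrator and 69.2% of 3' end processing genes, against 50% of all protein-coding genes. INTS11 replicate 2 was at 18.75% and 7.69%, against 22.2%. Of 16 Integrator subunit genes 2 (12.5%, against 17.3%) had both, INTS14 and INTS6L. With so few genes this share is near that of all protein-coding genes. Outside dense bins 1 of the 7 Integrator genes with INTS13 also had INTS11 (14.3%, against 10.7%), so a lower share was not seen there. INTS13 alone was at 9 (56.3%, against 46.4% of all protein-coding genes), among them INTS11 and INTS13, and neither protein at INTS3, INTS6, INTS9, INTS10 and INTS12, of which 3 had a peak of INTS13 replicate 1. At the start of INTS14 the ranks were 4.58% and 5.93% in INTS13 replicates 1 and 2 and 13.3% and 23.5% in INTS11 replicates 1 and 2. At the start of INTS13 they were 17.0% and 8.87% for INTS13 and 73.2% for INTS11 replicate 1 alone. Of 26 genes of 3' end processing 2 (7.69%) had both, CPSF1 and CPSF3, the subunits of the cleavage and polyadenylation factor of which CPSF3 is the endonuclease and a relative of INTS11. INTS13 alone was at 15 (57.7%), among them SLBP, SYMPK and PAPOLA. The 9 with neither reproducible region were not free of peaks: INTS13 replicate 1 had one at 8 of them, and PCF11 had peaks of both INTS13 lists that did not overlap into 1 region at its ends.

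Other gene groups ranged from cytosolic ribosomal protein genes at the top to olfactory receptor genes at the bottom. Both proteins were at 29 of 86 ribosomal protein genes (33.7%, against 17.3% of all protein-coding genes), close paralogs included, among them FAU, RPL10, RPL12 and RPL13A. INTS13 alone was at 39 (45.3%, against 46.4%). INTS11 was thus at 42.6% of ribosomal protein genes with INTS13, against 27.1% of all protein-coding genes with INTS13, and outside dense bins at 10 of 44 (22.7%, against 10.7%). Ribosomal protein genes have many processed copies, so single members are uncertain. Replication-dependent histone genes went the other way over all bins: both were at 9 of 70 (12.9%, against 17.3%). INTS13 alone was at 47 (67.1%, against 46.4%), and INTS11 was at 16.1% of those with INTS13. Outside dense bins that share was 11.3%, beside the 10.7% of all genes. Of the 70 histone genes 3 lay in dense bins (4.29%, against 22.7% of all protein-coding genes). Outside them both proteins were at 6 of 67, beside 5.8% of all protein-coding genes, so the lower share was not seen there. Histone genes too have close copies and lie in clusters.

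Counts in 5 further groups of stress, growth and metabolism are given by their share with both proteins. Both proteins were at 5 of 31 pausing and elongation genes (HEXIM1, HEXIM2, MEPCE and MLLT3 among them), 4 of 23 heat shock genes (BAG3, CCT3, DNAJB6 and TCP1) and 6 of 32 DNA replication genes (CDC45, CDT1, MCM2 and MCM5 among them). They were at 5 of 19 p53 targets (BAX, BTG2, GADD45A and GADD45B among them) and 4 of 19 cholesterol synthesis genes. These counts are 16.1%, 17.4%, 18.8%, 26.3% and 21.1%, beside 17.3% of all protein-coding genes.

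Genes of other tissues mostly had a region of neither protein. Of 19 liver and erythroid genes 12 had neither (36.1% of all protein-coding genes had neither), among them ALB, APOB, APOH and FGA, though APOB had a peak of INTS13 replicate 1 and APOH peaks of both INTS13 lists. Of the other genes 3 had INTS13 alone (15.8%, against 46.4% of all protein-coding genes). Both proteins were at 4 (21.1%, against 17.3%), APOA1, APOA2, CYP2E1 and TTR. INTS11 was thus at 4 of 7 liver and erythroid genes with INTS13 (57.1%, against 27.1%). Of 19 neuronal genes 11 had neither (57.9%) and 1, DLG4, had both (5.26%). Of these 11 genes 6 had a peak of INTS13 replicate 1. INTS13 replicates 1 and 2 were at 73.7% and 47.4% of the 19 neuronal genes, against 79.5% and 68.1% of all protein-coding genes. Of 392 olfactory receptor genes 354 had neither (90.3%) and 31 had INTS13 alone (7.91%). Another 6 had both (1.53%) and 1, OR2F1, had INTS11 alone (0.255%, against 0.15%).

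**Figure D5:**
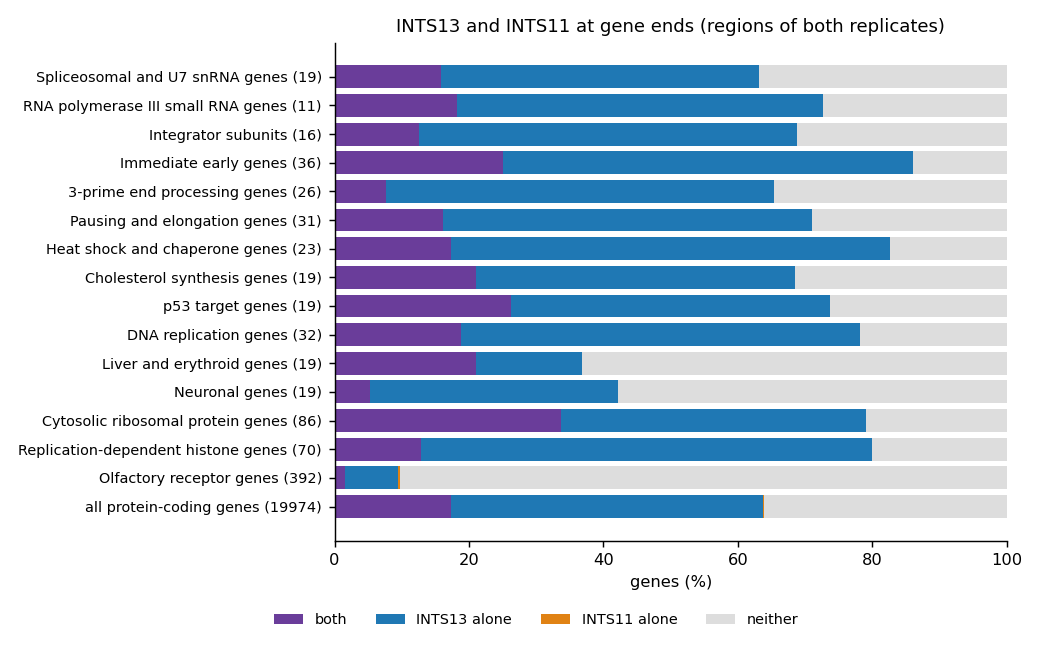
Percentage of genes (x axis) with both proteins, INTS13 alone, INTS11 alone or neither at an end, for 15 gene groups (number of genes in brackets) and all protein-coding genes. Both proteins are at 33.7% of ribosomal protein genes, 25% of immediate early genes and 17.3% of all genes, and olfactory receptor genes mostly have neither.

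Other chromatin proteins of the series also separated the INTS11-only class from the shared one. HDGF was at 9.78% of INTS11-only regions, ZEB1 at 8.02% and ZNF609 at 7.73%, and at least 1 of the 3 at 20.0%. At least 1 was at 48.6% of shared and 7.98% of INTS13-only regions. In dense bins HDGF was at 11.7% of INTS11-only, 36.4% of shared and 13.5% of INTS13-only regions, and ZEB1 at 10.5%, 29.9% and 1.45%. Outside dense bins ZEB1 was at 0.308%, 4.27% and 0.102%. INTS11-only regions were narrower, with a median of 824 bp, and the part of width in these shares was not tested.

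Promoters of genes with both proteins and with INTS13 alone had nearly the same base composition. Genes were classed here by their start alone. Over the 300 bases from RefSeq, the median GC content was 65.3% for 2366 genes with both at the start and 65% for 7172 with INTS13 alone. It was 60.3% for 30 with INTS11 alone and 57.7% for 6244 with neither. These 30 are not the set of 30 genes described above, of which 22 had a known start and 15 had INTS11 there. The median number of CG dinucleotides was 26, 25, 23.5 and 15. Of the 4 groups, genes with neither thus had the fewest, and 29.0% of them had under 5, beside 7.90% with both and 8.69% with INTS13 alone.

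Short motifs differed little between promoters with both and with INTS13 alone. Read on both strands, GGGCGG, the core of the GC box, was in 67.7% of promoters with both and 66.5% with INTS13 alone, beside 58.5% of all 15812. CCAAT was in 35.0% and 35.0%, beside 36.3% of all. TATAAA was in 6.21% and 6.90%, beside 9.64% of all and 14.1% of those with neither. Each motif was counted by itself, also where its edge letters overlapped another, and a match describes the sequence, not binding.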

How the data were processed

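ChIP-seq peak lists of INTS13 and INTS11 in HEK293T cells were compared, with 2 libraries per protein; 2 input libraries were not analysed here. Per the submitters' processing notes, the tools were MACS2, Bowtie, Picard, Trimmomatic and FastQC; for versions, control, thresholds and build, the entry is: not given in the sources used here. Peaks had been called per library, since the authors deposited 1 list each. The fold of a peak is the authors' deposited ratio over background, its p-value and q-value are on the -log10 scale as the authors deposited them, the score is the authors' 10-fold multiple of the -log10 q, rounded down; these rank and describe peaks within a list. The summit is the authors' deposited offset within the peak. Read depth is unknown, so no counting interval is given. GRCh38 was inferred from the names of alternate contigs.

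Peaks on chromosomes 1 to 22 and X were used, with Python 3.11.15, numpy 2.4.6 and pandas 2.3.3, in scripts tested on simulated data. Regions, classes and dense bins are defined in the results. Genes were 59098 RefSeq genes of GRCh38.p14. Starts and strand came from the RefSeq promoter table, which matched 15812 of 19974 protein-coding genes. Gene and region shares are descriptions without a test over regions, which are not replicates; differences between lists had exact permutation tests. The genes named for each class are the 8 protein-coding genes whose regions had the best worst rank over the lists, with no peak of the other protein in the single-protein classes. Members of the immediate early, snRNA, Integrator and 3' end processing lists were open to naming, and up to 4 alphabetical members of the others. Members and lists were chosen with earlier results of these data known. Replicate numbers did not pair the lists (correlation of same-numbered deviations over 1-Mb bins 0.0801). Alternatives were leaving out each list, peaks of -log10 q at least 5, equal list lengths, other overlap, window and dense-bin rules, and, added after seeing the data, midpoints and fixed widths.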

Additional observations from a re-analysis of the deposited data

Results flagged for a closer look

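Peaks also lay on alternate contigs of the assembly, which no comparison above uses. INTS13 replicates 1 and 2 held 93 and 68 such peaks, against 46 and 33 in INTS11 replicates 1 and 2. Each number is above the 3 that a count of 0 allows, and no control list was set beside them. Alternate contigs carry other versions of sequence on the main chromosomes.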

How the results depend on the processing

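Of 122 recomputed values of the comparisons 9 changed sign and 48 moved beyond the spread of the list pairs or beyond 1.5 times a count. The other 65 include whole-list differences, judged by sign alone. Over the settings that leave out no list, that at gene ends lay between 0.0792 (gene starts alone) and 5.18 points (equal lengths). That in dense bins lay between -32.8 and -13.9. The lower gene-end share of INTS11-only than shared regions and the higher dense-bin share of shared than INTS13-only regions kept their sign under each setting run.

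Leaving out 1 list moved the shared share of INTS13 regions between 14.6% and 48.4%, the INTS11-only share of INTS11 regions between 10.9% and 33.7%, and the genes with a shared region, INTS13 alone and INTS11 alone between 3701 and 9355, 3519 and 12402, and 5 and 776. The gene-end differences lay between -11.2 and -7.72 points for INTS11-only minus shared, 1.40 and 5.52 for shared minus INTS13-only, and -0.524 and 1.72 for INTS13 minus INTS11 lists. The dense-bin differences lay between -26.4 and -10.7, 41.5 and 66.1, and -41.7 and -22.8 in the same order. Summits of different proteins were 73.5 bp farther apart than those of replicates, and -102 to 192.5 bp with 1 list left out: -76 bp without INTS13 replicate 1, -102 bp without INTS13 replicate 2.

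With peaks of -log10 q at least 5, INTS11-only regions were 13.2% of INTS11 regions, the gene-end differences -13.1 (INTS11-only minus shared) and -8.84 (shared minus INTS13-only), the dense-bin differences 0.0609 and 14.4, the genes 665 with a shared region, 3068 with INTS13 alone and 9 with INTS11 alone, and the summit difference 262 bp. With lists of equal length INTS11 was at 49.7% of INTS13 regions, INTS11-only regions were 34.5%, the gene-end differences -12.6 and -4.07, the dense-bin difference of shared minus INTS13-only 40.0, and genes with INTS13 and INTS11 alone 3984 and 308. An overlap of 50% of the shorter region gave 18.9% INTS11-only regions. With no peak of either list of the other protein they were 5.55%, the gene-end differences -12.0 and 3.99, the dense-bin difference 70.1, and genes with 1 protein alone 3156 and 2.

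Outside dense bins the shared share was 4.44%, the INTS11-only share 26.7%, the gene-end differences -16.4 and 9.26 and the genes with a shared region 1104. Gene starts alone gave -6.76. Midpoints gave -3.84 and -1.55 (outside dense bins -8.11 and 4.33), and regions of 1000 to 2000 bp gave -3.81 and -5.26 with a dense-bin difference of 0.354 for INTS11-only minus shared. Except for fewer regions or lists, the causes were not tested. With the replicate numbers as a block, the whole-list differences were 0.601 (exact permutation p of 1.0) and -32.2 (p of 0.5, the smallest 2 pairs allow). Depth is unknown, so a missing peak may be an undetected one.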
